A study of Mus musculus with 4 samples.

Results

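Rad52 and Pms1 are DNA repair genes that both gave rise to circular RNAs (circRNAs) in developing mouse lung. All circRNAs whose deposited host identifier is Rad52 (ENSMUSG00000030166) or Pms1 (ENSMUSG00000026098) were taken, which gave 8 of the 13499 distinct circRNAs in the series, 3 of Rad52 and 5 of Pms1. The genes were chosen by their shares of junction reads and junction ratios in these same libraries, so the differences between stages describe them and test nothing. The series measured circRNAs in lungs of C57BL/6 mice at 4 stages. Embryonic day 14.5 stands for the pseudoglandular stage, embryonic day 16.5 for the canalicular, embryonic day 18.5 for the terminal sac and newborn day 7.5 for the alveolar stage. Total RNA was isolated with TRIzol, and the labels give neither the number of animals behind a library nor any treatment. Each stage has 1 library, so nothing measures the spread between animals, no p-value is given, and each comparison is of libraries rather than of stages.

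RAD52 binds single-stranded DNA and anneals complementary strands during the repair of double-strand breaks. PMS1 is a homologue of the bacterial mismatch repair protein MutL. A circRNA forms when the end of a downstream exon is spliced back to the start of an upstream exon of the same transcript, and the closed product lacks the free ends that exonucleases attack. A read that crosses this back-splice is called a junction read, and a read aligned linearly over the same exon ends is called a non-junction read.

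The libraries held 25983, 31218, 36156 and 28332 listed junction reads in stage order, and levels are given as junction reads per 10000 of these. Every interval is a 95% interval that covers counting error only, and PCR copies of 1 molecule count as separate reads, so the intervals can be too narrow. A gene or circRNA whose junction reads in a pair of libraries came to 10 or more was called higher or lower when its shares differed by at least 2-fold and the interval excluded 1.

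1 circRNA dominated each gene. Over the 4 libraries the leading Rad52 circRNA held 203 of 211 junction reads of its gene (96.2%), and the leading Pms1 circRNA held 106 of 129 (82.2%). They ranked 52 and 133 among all circRNAs of the series by junction reads. The Rad52 gene lies at chr6:119902698-119922828 on the plus strand (build mm10, GENCODE release M21 annotation), and its leading circRNA spans chr6:119920110-119921028, exons 10 to 11 of the 12 exons of transcript Rad52-201. The Pms1 gene lies at chr1:53189187-53297018 on the minus strand, and its leading circRNA spans chr1:53256629-53282092, exons 2 to 5 of the 13 exons of Pms1-201. Their junctions are printed with that of each gene's second most abundant circRNA, which differs from the leading one at 1 end. A divergent primer pair or probe would have to cover these junctions. Each shows the last 20 bases of the circle in lower case and its first 20 bases in capitals, read 5′ to 3′ in the sense of the gene from the M21 transcripts.
Rad52 exons 10 to 11: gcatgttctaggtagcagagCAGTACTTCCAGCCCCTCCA
Rad52 exons 10 to 11, shorter end: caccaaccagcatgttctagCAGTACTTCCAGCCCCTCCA
Pms1 exons 2 to 5: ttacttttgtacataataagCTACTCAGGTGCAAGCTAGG
Pms1 exons 2 to 5 preceded by an extra exon: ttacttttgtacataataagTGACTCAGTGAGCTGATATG

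The leading Rad52 circle is small and entirely coding. It joins exon 10 (chr6:119920110-119920190, 81 bases) to exon 11 (chr6:119920807-119921028, 222 bases), which makes 303 bases or 101 codons. Both exons lie in the later part of the coding sequence, and the circle is shown whole because its length, its reading frame and its alternative end can be read from it. The last 9 bases of exon 11, absent from the shorter circle, are in capitals.
exon 10: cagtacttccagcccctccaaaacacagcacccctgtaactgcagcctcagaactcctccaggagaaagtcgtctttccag
exon 11: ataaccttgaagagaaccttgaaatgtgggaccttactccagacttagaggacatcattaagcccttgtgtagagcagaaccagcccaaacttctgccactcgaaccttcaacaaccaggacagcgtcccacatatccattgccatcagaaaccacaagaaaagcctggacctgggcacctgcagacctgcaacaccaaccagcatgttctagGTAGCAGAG

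In the host's reading frame the circle has 0 stop codons, including the codon across the junction, and its length is a multiple of 3. A length divisible by 3 was found for 347 of 915 circRNAs (37.9%) that had 10 or more junction reads in some library and both ends at exon boundaries. Whether the circle is translated was not measured. Among those 915, only 5.7% had a shorter spliced length than the Rad52 circle, against a median of 615 bases. Its flanking introns were also short, 1032 bases upstream and 1446 downstream. Upstream introns were shorter for 6.9% of these circRNAs and downstream introns for 9.5%, with medians of 13360 and 11312 bases.

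The introns beside the Rad52 circle carry a matching pair of sequences in opposite orientation. The longest exact match between the intron before exon 10 and the reverse complement of the intron after exon 11 is 35 bases, at chr6:119919977-119920011, 98 bases before exon 10, and at chr6:119921401-119921435, 372 bases after exon 11. Both are printed on the plus strand to show that one reads as the reverse complement of the other.
before exon 10: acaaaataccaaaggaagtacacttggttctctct
after exon 11: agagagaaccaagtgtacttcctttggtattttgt
A local alignment around this pair had 56 of 58 aligned bases identical (96.6%) with 2 gaps. On the same strand the longest exact match was 11 bases. The 35 bases occur in the M21 transcripts of no gene but Rad52. The genome outside annotated transcripts was not searched, so whether they recur elsewhere cannot be told. Intron letters were read from the annotated unspliced transcript Rad52-214, which covers 606 of the 1446 bases after exon 11, and the rest of that intron was not read. The match describes the sequence, and pairing of these RNAs was not measured.

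The leading Pms1 circle is larger and holds the start codon. Its 4 exons make 602 bases, 20 of the 5′ untranslated region and 582 coding, a length not divisible by 3. Of the 915 circRNAs 48.3% were shorter, so its length was near the middle. Its flanking introns were long, 14793 bases upstream and 40281 downstream, and 53.9% and 89.4% of the circRNAs had a shorter intron on the respective side.

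**Figure D1:**
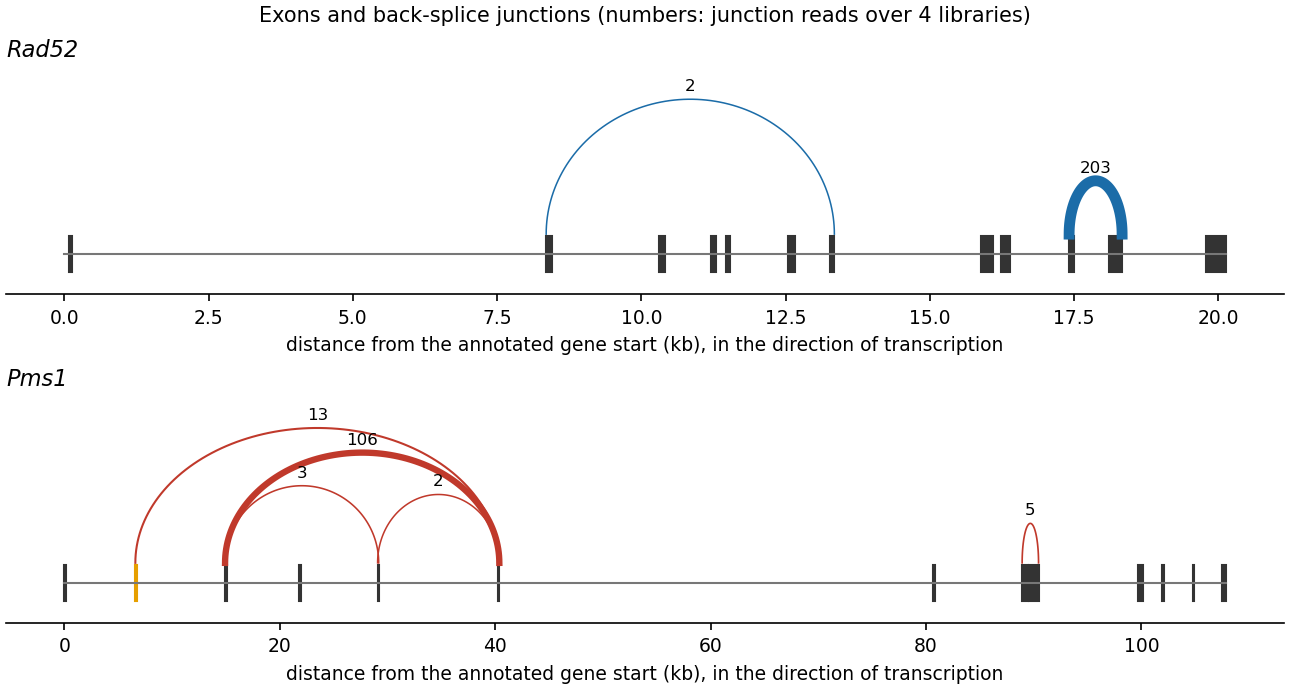
Exons (boxes) and back-splice junctions (arcs) of Rad52 and Pms1 along each gene, by distance in kb from the annotated gene start. Arc width and the number above it give junction reads summed over 4 libraries, the orange box is the alternative Pms1 exon, and the Rad52 circle that ends 9 bases earlier (6 reads) lies under the thick arc. In Rad52 the reads gather on 1 short arc near the end of the gene, and in Pms1 on arcs over its first exons.

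The minor circles were mostly variants of the leading ones. The shorter Rad52 circle, chr6:119920110-119921019, ends 9 bases inside exon 11 and makes 294 bases or 98 codons, also with 0 stop codons around the circle in the host frame. It had 2 junction reads in the pseudoglandular and 4 in the alveolar library, and was not listed in the other two. Both ends are followed by GT, the usual start of an intron, as the stretch chr6:119921010-119921038 shows with each GT in capitals: catgttctagGTagcagagGTgtgtggaa. The remaining Rad52 circle, exons 2 to 7 at chr6:119911048-119916042 (553 bases), had 2 reads in the pseudoglandular library.

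In Pms1, 3 of the 5 circles shared the end of exon 5. The second most abundant, chr1:53256629-53290423, starts at a 45-base exon of transcript Pms1-206 that lies upstream of exon 2 and adds untranslated bases, for a total of 647. It had 7 junction reads in the pseudoglandular and 6 in the canalicular library and was not listed in the later ones, where 3 reads, the limit set for an unlisted circle, would be 0.83 and 1.06 per 10000. Its level did not pass the call between the first 2 libraries (1.4-fold lower in the canalicular, 0.403 to 5.05). The other three were exons 7 to 9 (chr1:53206562-53208085, 2 canalicular and 3 terminal sac reads), exons 2 to 4 (chr1:53267828-53282092, 3 pseudoglandular reads) and exons 4 to 5 (chr1:53256629-53267930, 2 pseudoglandular reads). Of the 8 circles, 7, 4, 3 and 3 were listed in stage order. A library lists only circles with 2 or more junction reads, and 37.4% to 41.5% of the listed circles of a library had exactly 2. The absence of a minor circle with few reads was therefore not distinguishable from low sampling. For the Pms1 circle with 7 and 6 reads, the absence from the later libraries was not tested.

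The leading Rad52 circle was lowest in the youngest lung. It had 23, 53, 72 and 55 junction reads in stage order. Per 10000 these were 8.85 (5.61 to 13.3), 17.0 (12.7 to 22.2), 19.9 (15.6 to 25.1) and 19.4 (14.6 to 25.3). The 3 later libraries had overlapping intervals, and only the pseudoglandular one stood below them, with an interval that still overlapped that of the canalicular library. The circle was 2.25-fold higher in the terminal sac (1.39 to 3.77) and 2.19-fold higher in the alveolar (1.33 to 3.74) than in the pseudoglandular library, and both were called. For these comparisons 9.46% and 12.2% of all circRNAs tested were called higher. The canalicular difference of 1.92-fold (1.16 to 3.28) missed the 2-fold threshold. It was called under scaling by the total (2.17-fold) or the median ratio (2.12-fold) of non-junction reads.

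The leading Pms1 circle went the other way between the youngest and the oldest lung, though at other steps than the Rad52 circle. It had 39, 38, 22 and 7 junction reads in stage order. Per 10000 these were 15.0 (10.7 to 20.5), 12.2 (8.61 to 16.7), 6.08 (3.81 to 9.21) and 2.47 (0.993 to 5.09). The pseudoglandular and canalicular libraries did not differ beyond counting error (1.23-fold, 0.768 to 1.98), and the alveolar library was lowest. Relative to the pseudoglandular library the circle was 2.47-fold lower in the terminal sac (1.43 to 4.37) and 6.08-fold lower in the alveolar (2.69 to 16.1). Of all circRNAs tested, 14.1% and 17.4% were called lower in these comparisons. The terminal sac share was also lower than the canalicular (2-fold, 1.15 to 3.55, at the threshold), and the alveolar was lower than the terminal sac (2.46-fold, 1.02 to 6.83) and the canalicular (4.93-fold, 2.17 to 13.1). In these pairs 11.2%, 11% and 14.3% of circRNAs were called lower. The alveolar value rests on 7 reads, and of these calls the first was lost under scaling by the median ratio of junction reads (0.509 of the earlier level), and the second under the same scaling (0.461) and under the total of non-junction reads (0.424). Under the median ratio of non-junction reads, the terminal sac share of Pms1 lost its calls against the canalicular (0.753) and the pseudoglandular library (0.674).

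Summed over all circles of a gene, Rad52 had 27, 53, 72 and 59 junction reads and Pms1 had 51, 46, 25 and 7. Among the hosts of each library (2474, 2532, 2703 and 2348 in stage order), Rad52 ranked 156, 87, 72 and 62 by junction reads, and Pms1 ranked 68, 104, 290 and 754. Pms1 thus had more circular reads than Rad52 in the pseudoglandular library and fewer in the later ones. Their intervals overlapped in the pseudoglandular (14.6 to 25.8 and 6.85 to 15.1 per 10000) and in the canalicular library (10.8 to 19.7 and 12.7 to 22.2). Alveolar against pseudoglandular, Rad52 was 2.004-fold higher (1.25 to 3.29), which lay at the threshold, and Pms1 was 7.94-fold lower (3.59 to 20.7). Of 1084 hosts measured in that pair 12.9% were called higher and 16.7% lower. The 2 genes were chosen for this difference, so nothing is read from their calls against that background.

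Step by step, Pms1 was 1.33-fold lower from pseudoglandular to canalicular (0.877 to 2.03, not called), 2.13-fold lower to terminal sac (1.28 to 3.62, called) and 2.80-fold lower to alveolar (1.18 to 7.66, called). At these steps 11.3%, 12.1% and 12.4% of hosts were called lower. Rad52 changed by 1.63-fold (1.01 to 2.70), 1.17-fold (0.811 to 1.71) and 1.05-fold (0.728 to 1.5) at these steps, and none was called, where 8.87%, 12.4% and 12% of hosts were called higher. Over wider spans Pms1 was 2.84-fold lower in the terminal sac than in the pseudoglandular library (1.73 to 4.78, called as were 13.9% of hosts) and 5.96-fold lower in the alveolar than in the canalicular (2.67 to 15.7, called as were 15.1%). Rad52 was 1.92-fold (1.22 to 3.1) and 1.23-fold (0.832 to 1.81) higher over these spans and was not called, where 11.2% and 13.1% of hosts were called higher.

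The size of these folds depends on how libraries are scaled. Scaling by the median ratio of non-junction reads, an alternative added after the data were seen, raises every terminal sac to canalicular log2 ratio by 0.59 and every alveolar to pseudoglandular one by 0.38. Under it the Pms1 step from canalicular to terminal sac was 0.707 of the earlier level (not called), while the alveolar to pseudoglandular calls held at 0.164 for Pms1 and 2.60-fold for Rad52. The split of all host calls in that pair was 140 higher and 181 lower as reported, and 236 higher and 107 lower under that scaling.

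**Figure D2:**
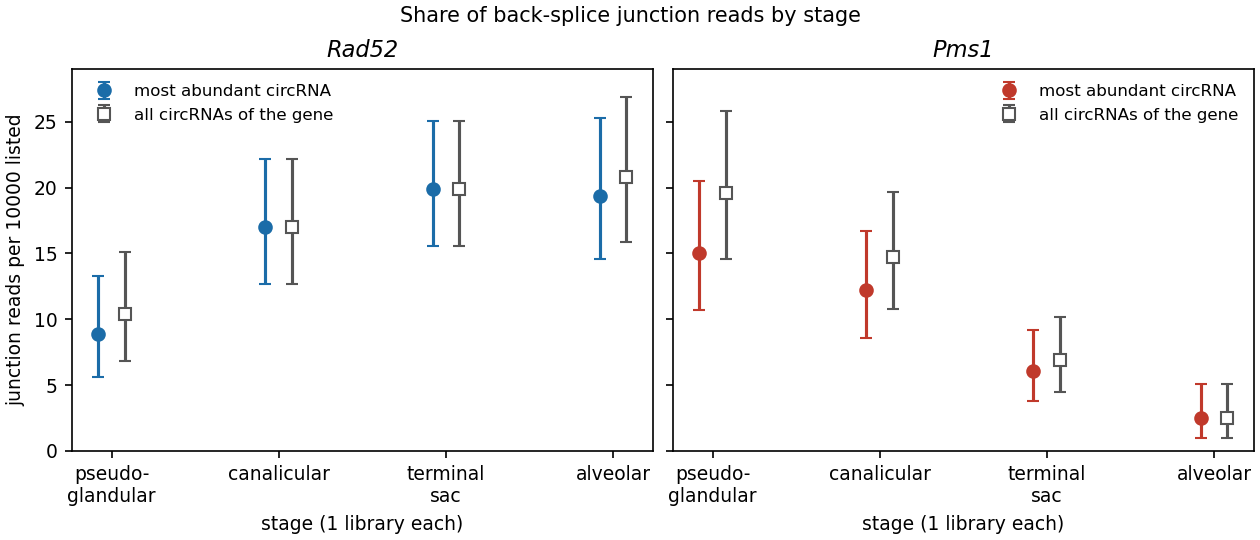
Junction reads per 10000 listed, by stage (1 library each), for the leading circRNA (filled circles) and all circRNAs of the gene (open squares), with 95% counting intervals. Rad52 is lowest in the pseudoglandular library at 8.85 per 10000 for its leading circle, and Pms1 is lowest in the alveolar library at 2.47.

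The junction ratio sets the circular form against the linear one at the same exon ends and does not use a library's total. It is the deposited fraction, 2 times the junction reads over that number plus the non-junction reads. For the leading Rad52 circle it was, in stage order, 0.214 (0.144 to 0.297), 0.311 (0.247 to 0.379), 0.478 (0.406 to 0.55) and 0.558 (0.47 to 0.642). The ratio was higher at each step, which held for 45 of 897 circRNAs listed in all 4 libraries (5.02%), and for 11 of 209 with 10 or more junction reads in every library (5.26%). The median over the 897 was 0.043, 0.048, 0.067 and 0.05. In the pseudoglandular library 80.1% of circRNAs with 10 or more reads had a lower ratio than the Rad52 circle, and in the alveolar library 96.4%.

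The odds of a junction read over a non-junction read were 4.57-fold higher for the Rad52 circle in the alveolar than in the pseudoglandular library (2.65 to 7.91). This was called, as for 14.7% of circRNAs in that pair, and 96% of them had a smaller odds ratio. Against the pseudoglandular library the terminal sac odds were 3.32-fold higher (1.99 to 5.55), in a pair where 27% of circRNAs were called higher and the median log2 odds ratio was 0.67. Neither the first step (1.64-fold, 0.971 to 2.77) nor the last (1.38-fold, 0.891 to 2.13) was called. The step from canalicular to terminal sac was called (2.03-fold higher, 1.35 to 3.04), as for 20.1% of circRNAs. In that pair the median log2 odds ratio was 0.55, and 69.5% of circRNAs had a smaller odds ratio than the Rad52 circle. The span from canalicular to alveolar was also called (2.79-fold, 1.78 to 4.37), as for 9.99%.

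The Pms1 circle had a high ratio throughout and no steady course. Its ratio was 0.411 (0.32 to 0.503), 0.543 (0.436 to 0.643), 0.595 (0.446 to 0.724) and 0.4 (0.193 to 0.619). In each library between 91.4% and 96.5% of circRNAs with 10 or more reads were below it. The lowest of these, 91.4% in the alveolar library, is the least certain, since the Pms1 circle itself had only 7 junction reads there. Alveolar against pseudoglandular, the odds ratio was 0.994 (0.401 to 2.46), an interval that reaches from 2.49-fold lower to 2.46-fold higher. The 6.08-fold lower share of the circle therefore came with no detected difference in its ratio to the linear form. Terminal sac against pseudoglandular the odds were 2.1-fold higher (1.09 to 4.04) and were called, as for 27% of circRNAs. The minor circles had lower ratios, from 0.019 to 0.207 in all.

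Between the youngest and the oldest lung, linear reads at the ends of the circle went against the circular ones in Rad52 and with them in Pms1. At the ends of the leading Rad52 circle there were 169, 235, 157 and 87 non-junction reads in stage order. Scaled by the median ratio of non-junction reads, the alveolar level was 1.66-fold lower than the pseudoglandular (1.27 to 2.18), whereas the junction reads were higher. From pseudoglandular to canalicular, however, the linear reads were 1.3-fold higher (1.06 to 1.59), in the same direction as the circle. At the ends of the leading Pms1 circle there were 112, 64, 30 and 21 non-junction reads. The alveolar level was 0.219 of the pseudoglandular (0.131 to 0.352), so linear and circular reads were both lower. From terminal sac to alveolar the linear level was 0.7 of the earlier one (0.381 to 1.26), no difference beyond counting error. Non-junction reads cover only the exon ends of the circle and are not a measure of the whole mRNA. In bulk tissue, fewer cells that express a gene and less RNA per cell cannot be told apart.

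**Figure D3:**
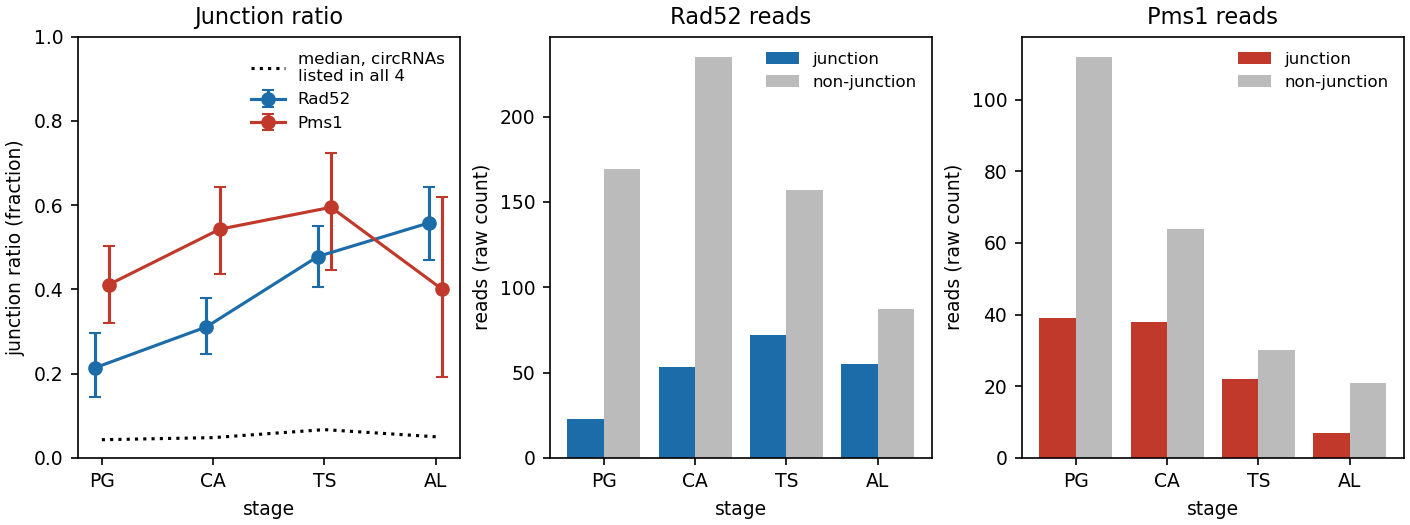
Left, junction ratio (fraction) of the leading Rad52 and Pms1 circRNAs by stage with 95% counting intervals, and the median of circRNAs listed in all 4 libraries (dotted); middle and right, their raw junction and non-junction reads. PG, CA, TS and AL are the pseudoglandular, canalicular, terminal sac and alveolar libraries; the Rad52 ratio goes from 0.214 to 0.558 as its non-junction reads go from 169 to 87, and both kinds of Pms1 reads are lowest in AL.

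**Figure D4:**
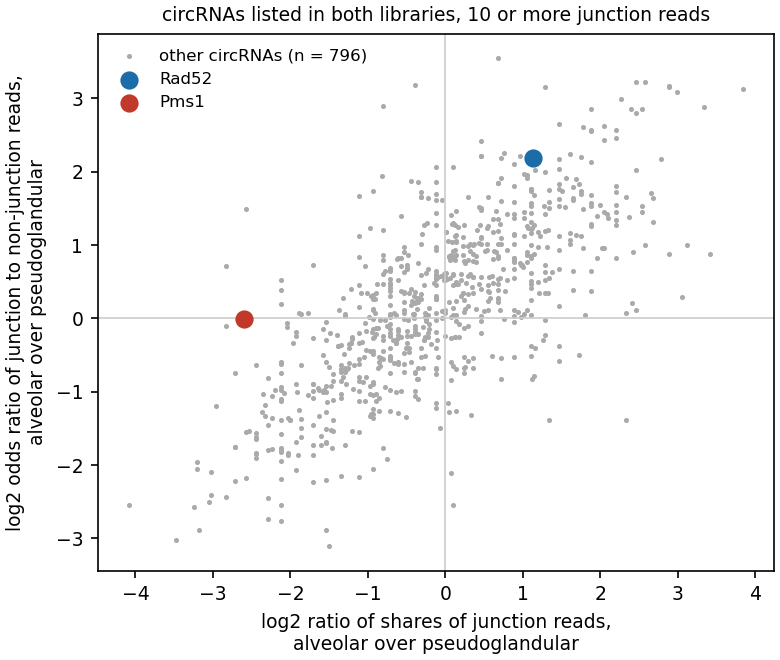
The log2 ratio of shares of junction reads (x axis) and the log2 ratio of the odds of a junction over a non-junction read (y axis), alveolar over pseudoglandular, for circRNAs listed in both libraries with at least 10 junction reads between them. Each point is 1 circRNA; the leading Rad52 circle is positive on both axes (shares 2.19-fold higher, odds 4.57-fold), and the leading Pms1 circle lies far to the left at an odds ratio of 0.994.

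Markers of cell types and of the cell cycle differed between the same libraries. Hosts of the cell cycle list (11 of 11 genes listed, among them Ezh2, Bub1b and Knl1) summed to 122, 106, 67.5 and 40.2 junction reads per 10000 in stage order. Lung epithelial markers (6 of 14 listed) summed to 0, 7.69, 124 and 270, led by the surfactant genes Sftpc and Sftpb. Not all rose. Of the 5 measured alveolar against canalicular, 4 were called higher and Etv5 lower, as were 13.1% and 15.1% of all hosts. Etv5 was also called lower in the terminal sac than in the canalicular library, where Lamp3 and Sftpc were called higher. Nkx2-1, Epcam, Cdh1, Ager, Hopx, Abca3, Scgb1a1 and Foxj1 had no listed circRNA. Endothelial markers (5 of 5 listed) summed to 2.31, 6.09, 6.64 and 24.7. The striated muscle list (2 of 7 listed, Ttn and Ryr2) summed to 28.1, 3.52, 2.21 and 4.24. Erythroid, liver and brain lists stayed at or below 1.11. The part of these shifts in the Rad52 and Pms1 differences was not tested.

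The other DNA repair genes showed no common course by their calls, though their median level was lower in the alveolar library. Of 161 genes in 8 repair lists, 75 were hosts of a listed circRNA, and without Rad52 and Pms1 their junction reads summed to 107, 116, 93.2 and 68.8 per 10000. Alveolar against pseudoglandular, 12 hosts other than these were measured, of which 1 was higher (Rad23b), 2 were lower (Rev1 and Fancl) and 9 were neither. Over all hosts 12.9% were called higher and 16.7% lower, so the list's counts lay near the background. The median log2 ratio of the 12 was -0.63, beside -0.12 over all hosts. Alveolar against terminal sac the median was -0.59 beside -0.18, and against canalicular -0.68 beside -0.19. In the latter pair 1 of 16 was called higher and 4 lower, where 13.1% and 15.1% of all hosts were. Alveolar against terminal sac, 1 of 15 was called higher and 3 lower (12% and 12.4% of all hosts). The terminal sac library had 2 of 21 higher and 4 lower against the canalicular (12.4% and 12.1%). Against the pseudoglandular it had 1 of 15 higher and 3 lower (11.2% and 13.9%). The canalicular library had 2 of 15 higher and 0 lower against the pseudoglandular (8.87% and 11.3%). Whether the medians differ from those of all hosts was not tested. Alveolar against pseudoglandular, the counts with Rad52 and Pms1 were 2 higher and 3 lower. Scaling by the median ratio of non-junction reads made them 3 higher and 2 lower.

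In homologous recombination, Bard1, the partner of BRCA1, followed Rad52 in abundance, with 14, 26, 31 and 6 junction reads in stage order. Its alveolar share was 2.54-fold lower than the pseudoglandular (0.918 to 8.08) and was not called, whereas against the terminal sac library it was called lower (4.05-fold, 1.66 to 11.9). The ratio of its leading circle was 0.057, 0.166, 0.358 and 0.056. The first and last of these ratios did not differ, and the last rests on 2 junction reads.

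Of the mismatch repair genes, 6 of 9 were hosts, and Pms1 held most of the list's reads. Of the list's junction reads, Pms1 had 51 of 66, 46 of 64, 25 of 44 and 7 of 12 in stage order. The summed level of the list thus rests largely on Pms1, though less so in the terminal sac and alveolar libraries.

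Translesion synthesis, in which special polymerases copy past damaged bases, held the abundant hosts nearest to Rad52 and Pms1. Rev1, a scaffold of these polymerases, had 65, 71, 49 and 25 junction reads. Like that of Pms1, the share of Rev1 was lower at every step, though none of the Rev1 steps was called. Rev1 was 2.84-fold lower in the alveolar than in the pseudoglandular library (1.76 to 4.69) and was called. Its leading circle also had a high junction ratio, 0.371, 0.553, 0.508 and 0.416. Rad18, a ubiquitin ligase that acts on PCNA, had 38, 38, 25 and 22 reads. It was not called in that pair (1.88-fold lower, 1.09 to 3.34), but was called lower in the terminal sac than in the pseudoglandular library (2.12-fold, 1.24 to 3.66).

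Fancl, the ubiquitin ligase of the Fanconi anaemia pathway, had 14, 12, 5 and 4 reads and was 3.82-fold lower in the alveolar library (1.20 to 15.9). Rad23b, a damage recognition factor of nucleotide excision repair, had 2, 9, 2 and 12 reads and was 5.50-fold higher (1.22 to 50.6), with no steady course. Both calls rest on few reads. The most abundant hosts of the other lists were Ercc5 (11, 9, 17 and 7) and Gtf2h1 (4, 5, 20 and 2) in nucleotide excision repair, and Trp53bp1 (2, 28, 3 and 6) and Xrcc4 (4, 5, 4 and 0) in end joining. Brip1 (2, 5, 8 and 6) came next to Fancl in its list, Uimc1 (8, 9, 12 and 6) and Abraxas1 (8, 13, 4 and 7) led damage signalling, and Parg (5, 3, 9 and 2) and Tdp2 (2, 7, 3 and 2) led base excision and single-strand break repair. None of these was lower at every step.

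**Figure D5:**
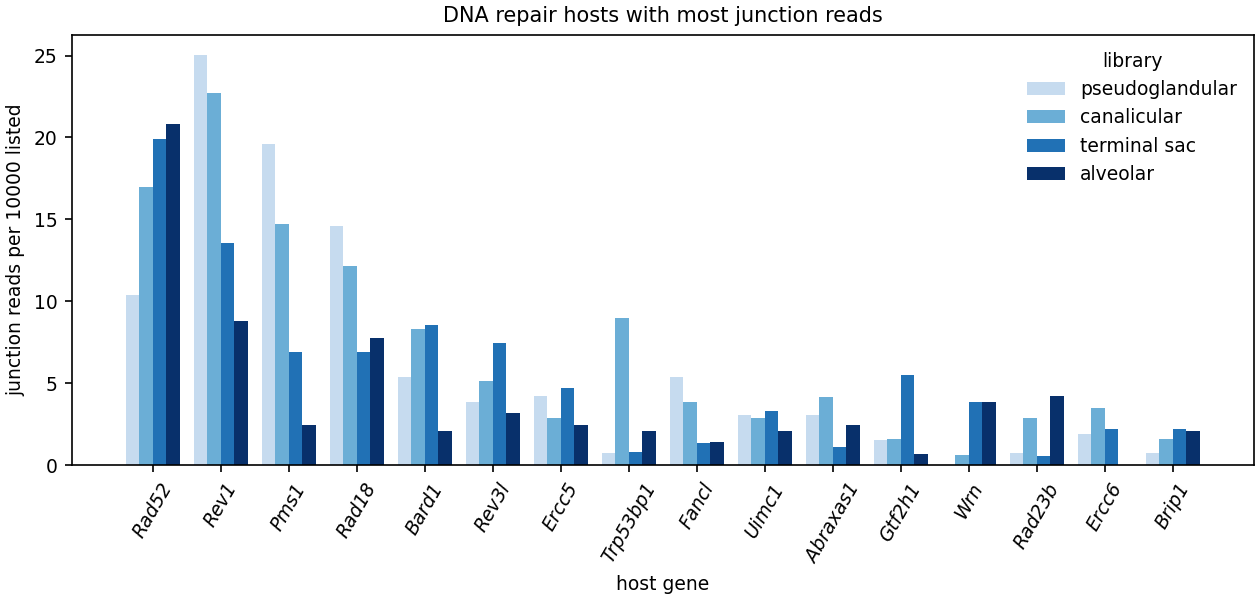
Junction reads per 10000 listed for the DNA repair hosts with most junction reads, Pms1 being the mismatch repair host drawn, with 1 bar per library in stage order and no replicates. Rad52 goes from 10.4 to 20.8, and Rev1 and Pms1 are tallest in the pseudoglandular library.

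The hosts whose profile over the 4 libraries was most like that of each gene are named as description. Profiles were shares divided by their sum over 4 libraries, compared by the sum of absolute differences among hosts with 40 or more junction reads. The only other repair hosts with that many were Rev1 (210), Rad18 (123), Bard1 (77), Rev3l (62) and Ercc5 (44). Nearest hosts from outside the repair lists were therefore likely from the start. Nearest to Rad52 were Hmbox1 (0.046), Ghr (0.049), Tmem164 (0.050), Srpk2 (0.069) and Smad2 (0.076). Nearest to Pms1 were Gstcd (0.085), Zfp516 (0.086), Arhgap5 (0.092), Ctnnb1 (0.113) and Disp1 (0.152). Rad52 and Pms1 stood 0.767 apart. These distances rest on 4 points each and describe likeness only.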

How the data were processed

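The deposited lists give circRNAs per library, and their columns match the caller CIRI. The build mm10 and the tools BWA, HISAT2 2.0.5, HTSeq, StringTie and cutadapt stand in the submitters' processing notes without roles. Filters on the lists are not given in the sources used here. Both junction and non-junction reads are raw counts and the junction ratio a fraction, per the file headers. Recomputing the deposited ratio gave 0 mismatches. The deposited alignment-pattern numbers, other values per the file headers, count distinct patterns among junction reads and served as a check. Of 340 read names of Rad52 and Pms1 circRNAs, 0 served more than 1 circRNA.

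Shares were compared with exact conditional binomial intervals, ratios with Clopper-Pearson intervals and odds with Woolf intervals (0.5 added). An unlisted circRNA or host was set to 3 reads. Python 3.11.15, numpy 2.4.6, pandas 2.3.3, scipy 1.17.1, Biopython 1.88 and matplotlib 3.10.9 were used, and the code was tested on simulated data. Sequences and exons came from GENCODE M21.

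Members and gene lists were chosen with earlier results of these data known. Named were all circRNAs of both genes, repair hosts called alveolar against pseudoglandular, the 2 hosts of each list with most reads, and the 5 nearest profiles. Of the hosts this rule names, 1 is not reported here. Alternatives were other scalings, read minimums, merged junctions, annotated hosts and exclusion of circRNAs with repeated ends or few patterns.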

Additional observations from a re-analysis of the deposited data

How the results depend on the processing

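No called fold of Rad52 or Pms1 changed its direction under any alternative, but splits of calls over all hosts did. Both alveolar against pseudoglandular calls, Rad52 higher and Pms1 lower, kept their side of the threshold under each. Against the pseudoglandular library, terminal sac Rad52 became called at 2.06-fold (scaling by total non-junction reads), 3.18-fold (by the median ratio of non-junction reads) and 2.19-fold (3 or more reads in a library). Under the median ratio of non-junction reads, terminal sac Pms1 lost its calls against the canalicular library (0.707) and against the pseudoglandular (0.585). Of 1183 hosts tested for terminal sac against pseudoglandular, that scaling called 448 (397 higher and 51 lower, from 132 and 164). Of the 17 repair hosts among these, 1 higher and 4 lower became 6 and 0, so the shift was one of hosts at large. The cause was not tested.

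With 20 or more reads required in the pair, fewer genes are tested. Called circRNAs were then 100 for canalicular against pseudoglandular, 148 for terminal sac against canalicular, 149 for alveolar against terminal sac, 159 for alveolar and 145 for terminal sac against pseudoglandular, and 165 for alveolar against canalicular. Called hosts were 132, 188 and 180 for the first 3 of these, 194 for terminal sac against pseudoglandular and 208 for alveolar against canalicular. Called repair hosts were 3 of 5 tested for alveolar against pseudoglandular and 1 of 10 for canalicular against pseudoglandular. They were 3 of 11 for terminal sac against canalicular and 3 of 9 for terminal sac against pseudoglandular. The circRNA and host counts stand without the numbers tested, so nothing is read from the repair counts against them. With 3 or more reads in a library, the canalicular and terminal sac repair counts against pseudoglandular were 1 of 16 and 3 of 12. The latter was 3 of 15 without repeat-end and few-pattern circRNAs. No paired analysis was possible because each stage has 1 library. Depth limits the alveolar Pms1 values and all minor circles.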
